A study of Mus musculus with 12 samples.

Results

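The genes described here are the Notch receptors and their Delta-like and Jagged ligands, measured in mouse thymus and thymic tumors. The list held 8 genes, Notch1, Notch2, Notch3, Notch4, Dll1, Dll4, Jag1 and Jag2, and a gene was included if the array annotation gave it a transcript cluster, which is the group of probes summed into 1 value per gene, with no other symbol. By this rule 7 of the 8 genes were measured, out of 15223 genes with a cluster of their own and 17829 clusters in all. The cluster that lists Notch4 also lists Btnl2 and Btnl6, so Notch4 was not analysed here.

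All mice were females. In the Sdl model 1 copy of Mcm4, a subunit of the replicative DNA helicase, carries the substitution D573H, and the wild-type mice lack it. There were 4 pools of thymic tumor from Mcm4 (D573H/+) mice taken when moribund, with no age in days, 4 pools of pre-leukemic whole thymus from Mcm4 (D573H/+) mice at 21 days of age, and 4 pools of whole thymus from Mcm4 (+/+) mice at 21 days. Each pool joined the RNA of 3 organs and was read on 1 Affymetrix exon array, so differences between single mice cannot be seen, and tumors differ from both thymus groups in age as well as in disease. The unit is the normalized intensity that the authors deposited, on a linear scale, and tests were run on its log2. Arrays of a group correlated at 0.983 to 0.996 across clusters and no 2 arrays were identical. The median SD of a cluster was 0.18 (log2) in tumors, 0.17 in pre-leukemic thymus and 0.09 in wild-type thymus.

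Notch receptors sit in the cell membrane and are switched on by Delta-like or Jagged ligands on a neighbouring cell. Ligand pulling lets a metalloprotease and then the gamma-secretase complex cut the receptor, and the freed intracellular part enters the nucleus, where it joins the DNA-binding protein RBPJ and a Mastermind coactivator on target genes. In the thymus, Dll4 on cortical epithelial cells engages Notch1 on incoming progenitors and commits them to the T lineage, and mutations that activate Notch1 are frequent in T-cell leukemia.

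In thymic tumors the receptors Notch1 and Notch3 were higher and the ligands Dll4 and Jag1 lower than in wild-type thymus. Against pre-leukemic thymus, Notch1 and Notch3 were again higher and Dll4 lower. No member passed the test between pre-leukemic and wild-type thymus. Notch2, Dll1 and Jag2 passed it in no comparison.

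The start-site windows of the 4 genes that changed are given here because 2 receptors rose and 2 ligands fell together. Each is the RefSeq sequence (GRCm38.p6) from 250 bases before to 50 bases after the annotated start, written 5′ to 3′ on the strand of the gene. Capitals mark the letters of any of 5 motifs searched on both strands, which were TGGGAA, the core that RBPJ binds, CAGCTG and CAGGTG, cores of E-protein sites, GGGCGG, the GC box of Sp1, and TATAAA, the core promoter box named for its letters.
Notch1, chr2:26503773-26504072, minus strand: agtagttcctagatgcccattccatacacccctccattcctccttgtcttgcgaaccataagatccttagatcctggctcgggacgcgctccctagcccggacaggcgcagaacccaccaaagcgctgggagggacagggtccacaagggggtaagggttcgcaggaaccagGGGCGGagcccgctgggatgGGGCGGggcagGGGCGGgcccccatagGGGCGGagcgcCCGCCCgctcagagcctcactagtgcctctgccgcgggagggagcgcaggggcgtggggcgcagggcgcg
Notch3, chr17:32166841-32167140, minus strand: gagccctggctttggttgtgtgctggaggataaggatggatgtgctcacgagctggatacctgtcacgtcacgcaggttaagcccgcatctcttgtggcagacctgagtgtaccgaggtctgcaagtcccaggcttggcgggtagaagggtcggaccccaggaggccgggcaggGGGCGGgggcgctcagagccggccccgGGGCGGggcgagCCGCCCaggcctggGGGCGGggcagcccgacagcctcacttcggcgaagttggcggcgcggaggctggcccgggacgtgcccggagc
Dll4, chr2:119325534-119325833, plus strand: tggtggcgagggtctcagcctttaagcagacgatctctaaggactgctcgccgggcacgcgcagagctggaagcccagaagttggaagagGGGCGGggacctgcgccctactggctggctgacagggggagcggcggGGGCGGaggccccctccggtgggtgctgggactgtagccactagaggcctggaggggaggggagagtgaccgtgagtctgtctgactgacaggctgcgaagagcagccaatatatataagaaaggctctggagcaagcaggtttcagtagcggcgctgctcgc
Jag1, chr2:137116471-137116770, minus strand: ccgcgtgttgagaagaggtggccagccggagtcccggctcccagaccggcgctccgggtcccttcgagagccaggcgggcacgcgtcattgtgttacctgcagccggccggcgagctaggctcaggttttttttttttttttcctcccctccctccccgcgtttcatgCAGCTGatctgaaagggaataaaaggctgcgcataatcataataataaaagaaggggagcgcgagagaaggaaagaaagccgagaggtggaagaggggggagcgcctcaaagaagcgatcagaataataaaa
The window of Notch1 held 5 matches to GGGCGG, that of Notch3 held 4 and that of Dll4 held 2. The window of Jag1 held none, and its only match was 1 CAGCTG. Among the members that passed in no comparison, the window of Notch2 held 7 matches to GGGCGG and that of Jag2 held 5. The windows of Dll1 held none. Of 32851 windows of 300 bases for all genes, 35.7% held GGGCGG and 16.3% held CAGCTG. The letters TGGGAA occurred in 25.6% of all windows and TATAAA in 13.6%, and neither was found in the 8 windows of the 7 members. CAGGTG, in 20.2% of all windows, was found once among the members, in a window of Dll1. The share of G and C was 68.3% for Notch1, 70.0% for Notch3, 63.7% for Dll4 and 55.7% for Jag1, against a median of 52.7% over all windows. It was 73.0% for Notch2, 86.0% for Jag2, and 62.7% and 56.3% for the windows of Dll1. No match overlapped another in the 4 windows shown.

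Notch1 (cluster 6885488) is the receptor through which progenitors take the T-cell path. Its intensities in tumor replicates 1 to 4 were 2044, 3157, 2448 and 2739.9. In pre-leukemic thymus they were 1514, 1976, 1299 and 1657, and in wild-type thymus 1170.1, 1073, 1169 and 1125. All 4 tumors lay above all 4 pre-leukemic pools, and these above all 4 wild-type pools. The mean was 11.32 ± 0.27 for tumors, 10.64 ± 0.25 for the pre-leukemic pools and 10.15 ± 0.06 for the wild-type pools (log2 intensity ± SD, n = 4 each).

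Notch1 was 1.18 ± 0.12 higher in tumors than in wild-type thymus (log2 difference ± SE, 95% interval 0.90 to 1.46, limma adjusted p = 1.71e-04), which is 2.26-fold. Against pre-leukemic thymus of the same genotype it was higher by 0.69 ± 0.16 (95% interval 0.32 to 1.06, limma adjusted p = 0.0209). That call was lost without tumor replicate 4 (0.66, adjusted p = 0.0615) and without pre-leukemic replicate 1 (0.66, adjusted p = 0.0632). It was also lost without the 4 arrays of the narrowest interquartile range of log2 intensity, which were pre-leukemic replicates 1 and 2 and tumor replicates 2 and 3 (0.69, adjusted p = 0.131). Pre-leukemic minus wild-type thymus gave 0.49 ± 0.12 (95% interval 0.22 to 0.76), which did not pass over all clusters (limma adjusted p = 0.764), although it stood 42nd of 17829 by unadjusted p (0.00272).

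Notch3 (cluster 6854864), a receptor of early thymocytes and of the mural cells of blood vessels, read 520.5, 1005, 925 and 1052 in tumor replicates 1 to 4. It read 495, 489, 367 and 458 in pre-leukemic thymus and 358, 339, 364 and 363 in wild-type thymus. Tumor replicate 1 lay just above the highest pre-leukemic pool, and the other tumors at nearly the level of one another and far higher. Pre-leukemic replicate 3 lay only just above the highest wild-type pool, and the other pre-leukemic pools stood clear of wild type.

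Notch3 was 1.25 ± 0.20 higher in tumors than in wild-type thymus (95% interval 0.79 to 1.70, limma adjusted p = 0.00168), or 2.37-fold. Without tumor replicate 1 the difference was 1.48 (adjusted p = 1.02e-05). With the criterion of the series' design text added, a posterior probability over 95%, Notch3 was no longer called in this comparison. The posterior was limma's, with a small fixed prior share of changed clusters, and need not equal that of the design text. With it 886 of 17829 clusters were called, against 5474 without. Against pre-leukemic thymus Notch3 was higher by 0.91 ± 0.22 (95% interval 0.42 to 1.40, limma adjusted p = 0.0212). Leaving out tumor replicate 2, 3 or 4 or pre-leukemic replicate 3 gave 0.83, 0.87, 0.81 and 0.81 and ended this call (adjusted p = 0.0536, 0.0516, 0.0634 and 0.0509). Dropping the 4 narrowest arrays ended it too (0.85, adjusted p = 0.240). Pre-leukemic minus wild-type thymus gave 0.34 ± 0.10 (limma adjusted p = 0.764).

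Mural cells also carry Notch3, so their markers stand beside it. Of 10 pericyte and smooth muscle markers 1 rose in tumors against wild-type thymus and 3 fell, where 16.2% of all clusters rose and 14.5% fell. Their median was -0.11, and their summed intensity was 2477 to 4467 in tumors and 2601 to 2956 in wild-type thymus. The marker that rose was Pdgfrb, the PDGF receptor beta of pericytes and fibroblasts, by 2.39 (limma adjusted p = 0.00107), to 672, 612, 1012 and 2216 in tumors against 174 to 212 in wild-type thymus. Rgs5, a signalling regulator abundant in pericytes, fell by 1.40. The part of mural cells in the Notch3 difference was not tested.

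Notch2 (cluster 6899861), a receptor with known roles in B cells and myeloid cells, read 567, 369, 434 and 407 in tumors. It read 526, 517, 469 and 531 in pre-leukemic thymus and 491, 502, 513 and 488 in wild-type thymus. Tumor replicate 1 was the highest of the 12 arrays and the other 3 tumors were the lowest. The tumor minus wild-type difference was -0.18 ± 0.12 (95% interval -0.46 to 0.09, limma adjusted p = 0.292). Without tumor replicate 1 it was -0.31 and passed (adjusted p = 0.0174). Against pre-leukemic thymus tumors gave -0.22 ± 0.13 (limma adjusted p = 0.342), and pre-leukemic minus wild-type thymus gave 0.03 ± 0.06 (95% interval -0.11 to 0.18).

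Dll4 (cluster 6880513), the ligand that thymic cortical epithelium presents to progenitors and that endothelial cells also use, read 71.5, 100.1, 109.9 and 87.2 in tumors. It read 241, 354, 215 and 283 in pre-leukemic thymus and 209.9, 223, 210.4 and 223 in wild-type thymus. The highest tumor was far under the lowest thymus pool of either genotype, while pre-leukemic replicate 3 fell among the wild-type pools and the other 3 lay above them. Dll4 fell by 1.25 ± 0.12 in tumors against wild-type thymus (log2 difference ± SE, 95% interval -1.53 to -0.97, limma adjusted p = 1.29e-04). Against pre-leukemic thymus it fell by 1.56 ± 0.18 (95% interval -1.96 to -1.15, limma adjusted p = 6.86e-04). Both calls held under each of 20 alternative settings per comparison, with differences of -1.45 to -1.12 and -1.67 to -1.41. Pre-leukemic minus wild-type thymus gave 0.31 ± 0.14 (95% interval -0.01 to 0.63, limma adjusted p = 0.764).

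The tumor level of Dll4 was weak. Of 780 clusters of olfactory receptors, whose genes serve smell, 95% had a mean below an intensity of 115.3, and all 4 tumors read below that. Tumor Dll4 is therefore not shown to lie above background, and the differences above are of measured signal. With each tumor set to that mark, Dll4 was at least 1.88-fold lower in tumors than in wild-type thymus and at least 2.33-fold lower than in pre-leukemic thymus. Markers of cortical epithelium fell with it. All 11 of them fell in tumors against wild-type thymus, where 14.5% of all clusters fell. The falls ran from 1.22 (Ly75, an endocytic receptor) to 5.81 (Prss16, a thymus-specific protease), with a median difference of -3.34. Their summed intensity was 3808 to 5339 in tumors, 34812 to 37854 in pre-leukemic thymus and 32197 to 36525 in wild-type thymus. Prss16 read 57.8 to 81.8 in tumors, also below the mark of 115.3, so its fall is likewise of measured signal. In whole organs, fewer epithelial cells and less RNA per cell cannot be told apart, and the part of epithelial content in the Dll4 difference was not tested.

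Jag1 (cluster 6891336), a Jagged ligand of endothelium, smooth muscle and epithelium, read 72.8, 102, 107 and 96.2 in tumors. It read 135, 133, 112 and 125 in pre-leukemic thymus and 126, 131, 129 and 129.7 in wild-type thymus. No tumor reached the lowest pre-leukemic or wild-type pool, and tumor replicate 1 was the lowest. Jag1 fell by 0.47 ± 0.12 in tumors against wild-type thymus (95% interval -0.73 to -0.20, limma adjusted p = 0.0142), and by 0.35 without tumor replicate 1 (adjusted p = 0.00624). This call ended with the posterior criterion. All 4 tumors also read below the olfactory mark of 115.3, and with each set to it Jag1 was at least 1.12-fold lower in tumors than in wild-type thymus. Against pre-leukemic thymus it gave -0.43 ± 0.13 (limma adjusted p = 0.0545), and 6 of the 20 alternative settings called it there, among them all 12 arrays in 1 fit (adjusted p = 0.0134). Pre-leukemic minus wild-type thymus gave -0.03 ± 0.07 (95% interval -0.20 to 0.14).

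Markers of the cells that carry Jag1 stand beside it. Of 9 markers of medullary epithelium 6 fell in tumors against wild-type thymus and 0 rose, with a median of -1.35. Their summed intensity was 1300.1 to 2293 in tumors, 3906 to 5293 in pre-leukemic and 4579 to 4896 in wild-type thymus. Of 12 endothelial markers 4 fell and 0 rose, with a median of -0.16, where 14.5% of all clusters fell and 16.2% rose. Their summed intensity was 2121 to 2784 in tumors, 2265 to 2972 in pre-leukemic and 2607 to 3049 in wild-type thymus. Cdh5, the cadherin of endothelial junctions, fell by 0.80, whereas Pecam1, an adhesion molecule of the same cells, differed by -0.01 (limma adjusted p = 0.945). Pre-leukemic replicate 3, the lowest pre-leukemic pool for Jag1, was also the lowest of its group for the endothelial sum (2265) and the mural sum (2294). That pool had the highest medullary sum of its group, at 5293 against 3906 to 4327 in the others. It stood further apart for 8 fat markers, at 2233 against 8734 to 14141 in the other pre-leukemic pools, and for 8 fibroblast markers, at 3889 against 6979 to 11851. The part of these cells in the Jag1 difference was not tested.

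Jag2 (cluster 6803917), a Jagged ligand, read 163, 209.1, 201 and 168 in tumors, 238, 259, 218 and 215 in pre-leukemic thymus and 214, 209.8, 215 and 224 in wild-type thymus. Every tumor was below every thymus pool of both genotypes, tumor replicate 2 by less than 1 intensity unit from wild-type replicate 2. The differences were -0.23 ± 0.09 against wild-type thymus (95% interval -0.44 to -0.02, limma adjusted p = 0.100) and -0.33 ± 0.11 against pre-leukemic thymus (limma adjusted p = 0.0817), and neither passed. Leaving out tumor replicate 2 gave -0.29 against wild type, which passed (adjusted p = 0.0382). Without the 4 narrowest arrays the value was -0.38 (adjusted p = 0.00296). Pre-leukemic minus wild-type thymus gave 0.10 ± 0.08 (95% interval -0.07 to 0.28).

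Dll1 (cluster 6853934), a Delta-like ligand able to support T-cell development from progenitors in culture, read 81.0, 101, 102 and 84.6 in tumors. It read 119, 129, 96.2 and 89.5 in pre-leukemic thymus and 99.7, 99.7, 109.8 and 113 in wild-type thymus. The groups overlapped, and every tumor and wild-type pool read below the 115.3 that bounds 95% of the olfactory receptor clusters. Tumor minus wild-type thymus gave -0.20 ± 0.10 (95% interval -0.42 to 0.02, limma adjusted p = 0.151), and -0.35 without the 4 narrowest arrays (adjusted p = 0.0137). Dll1 gave, for tumor minus pre-leukemic thymus, -0.23 ± 0.14 (limma adjusted p = 0.355). Pre-leukemic minus wild-type thymus gave 0.02 ± 0.12, with a 95% interval of -0.25 to 0.30.

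**Figure D1:**
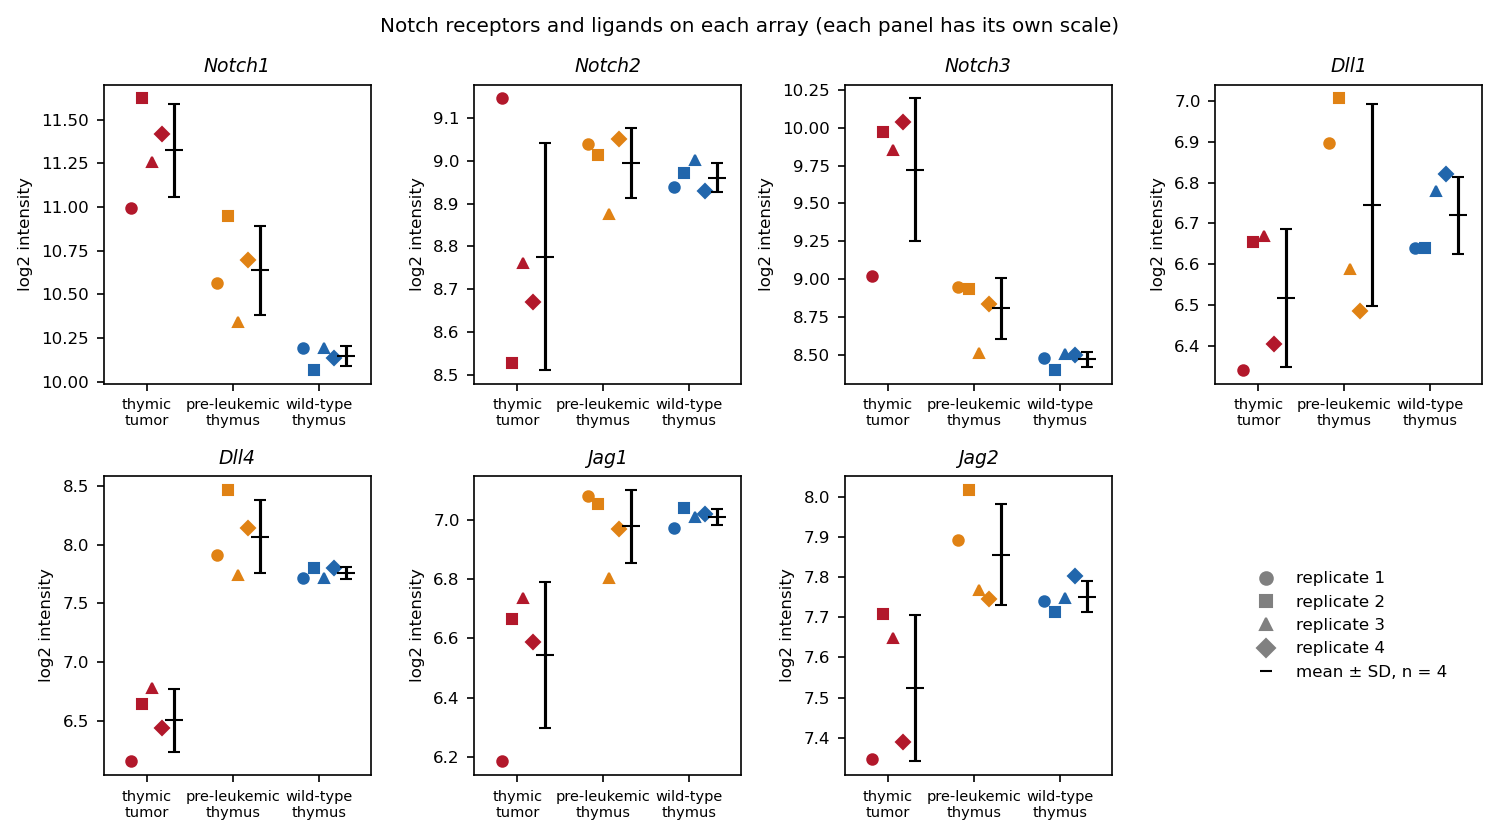
Log2 intensity of the 7 measured Notch receptors and ligands on each of the 12 arrays, with 1 panel per gene and its own vertical scale. Points are single pools, their shape gives the replicate number, and the black bar is the mean ± SD of 4 pools. Tumors stand above both thymus groups for Notch1 and Notch3 and below both for Dll4 and Jag1, and tumor replicate 1 lies away from the other tumors for Notch3, Jag1 and Notch2, by gaps within the 95% limit of Dixon's test.

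Across the members, then, 4 of 7 passed between tumors and wild-type thymus, 2 higher and 2 lower, where limma called 30.7% of all clusters. Between tumors and pre-leukemic thymus 3 of 7 passed, 2 higher and 1 lower, where it called 16%. Between pre-leukemic and wild-type thymus 0 of 7 passed and 0% of clusters did. At an unadjusted p under 0.05 there were 2 members there, Notch1 and Notch3, and 6.24% of clusters, beside 5 members in each tumor comparison, where 40.7% of clusters (against wild type) and 28.5% (against pre-leukemic) reached it. The median difference over the 7 members was -0.20, -0.23 and 0.10 in these comparisons, beside 0.07, 0.02 and 0.04 over all clusters.

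Arrays without overlap were seen for 5 of 7 members in both tumor comparisons, 2 higher and 3 lower in both. Over all clusters 34.0% were without overlap against wild-type thymus, 18.3% higher and 15.7% lower, and 21.8% against pre-leukemic thymus, 11.6% higher and 10.2% lower. They were seen for 2 of 7 in pre-leukemic against wild-type thymus, Notch1 and Notch3, both higher, where 4.43% of clusters were, 3.65% higher and 0.780% lower. The comparisons share arrays, so their counts are not independent of each other. By size of change, Notch1 and Notch3 lay above 96.5% and 97.0% of clusters between tumors and wild-type thymus.

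**Figure D2:**
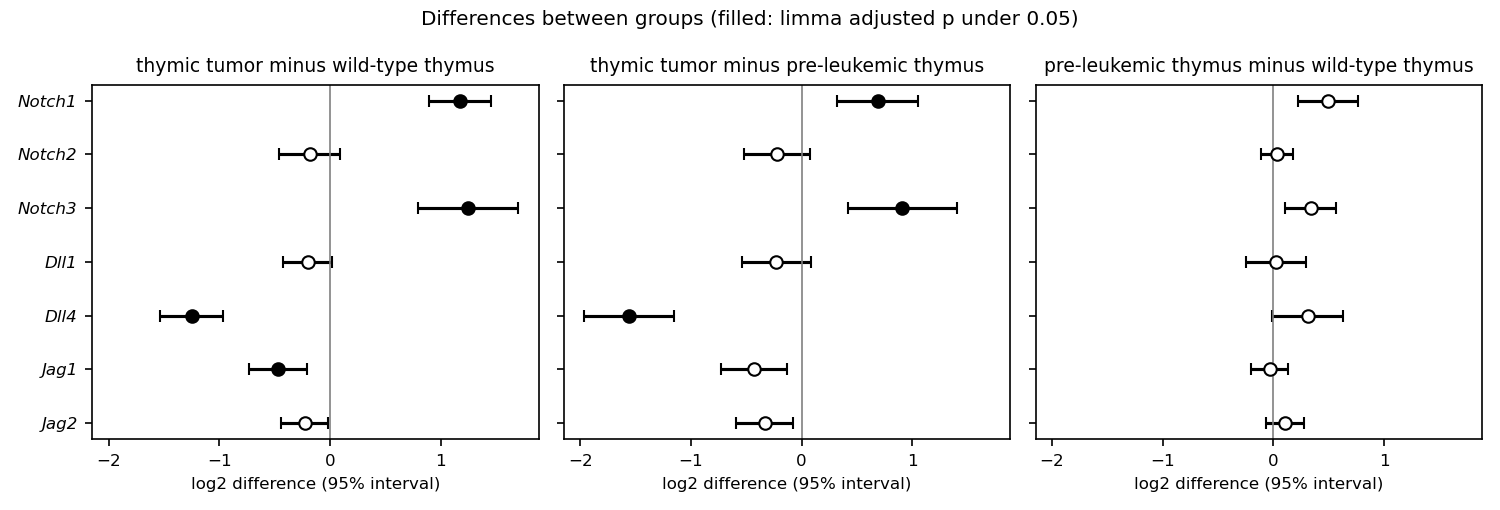
Log2 differences of the 7 members in the 3 comparisons, with 95% intervals from limma. Filled points passed at an adjusted p under 0.05. Notch1 (1.18) and Notch3 (1.25) lie to the right and Dll4 (-1.25) to the left in tumors minus wild-type thymus, and no point is filled in pre-leukemic minus wild-type thymus.

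In tumors and in pre-leukemic thymus a single pool was the lowest for most members. Tumor replicate 1 was the lowest tumor for 6 of the 7 members and the highest for the seventh, Notch2. Pre-leukemic replicate 3 was the lowest of its group for 5 members, and replicate 2 the highest for 4. Without pre-leukemic replicate 3, pre-leukemic minus wild-type thymus gave 0.59 for Notch1 (adjusted p = 0.0938) and 0.43 for Notch3 (adjusted p = 0.0891). No tumor pool was the highest for more than 3 members. Wild-type pools differed little, with SDs of 0.03 to 0.09 over the 7 members, and none was the lowest for more than 3. How often each pool was the lowest over all clusters was not counted. Pre-leukemic replicates 1 and 2 were also among the arrays of narrowest interquartile range. Tumor replicate 1 had the lowest median intensity of all arrays (186) and the widest interquartile range (3.17, log2). In the pre-leukemic group the array median was lowest on replicate 3 (192) and highest on replicate 2 (209.8). The part of array level in the shared low and high readings was not tested.

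Targets of Notch were also read on each array. Hes1, a transcriptional repressor that Notch induces directly, read 418, 655, 840 and 847 in tumor replicates 1 to 4 and 153 to 182 in wild-type thymus. Nrarp, an ankyrin-repeat protein that Notch induces and that restrains it, read 436, 944, 1906 and 982 in tumors and 105 to 127 in wild-type thymus. Tumor replicate 1 was the lowest tumor for both genes, and still lay above every wild-type and pre-leukemic pool. Of the other targets read on each array, Heyl (411) and Dtx1 (1833) were also lowest in that tumor pool. Il2ra (4619) and Hey1 (103) were lowest in tumor replicate 4, and Myc (2911) in tumor replicate 2.

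Other genes of the pathway were taken from lists by step. Among enzymes that glycosylate receptors or move ligands, 2 of 10 rose in tumors against wild-type thymus and 2 fell (median 0.04), where 16.2% of all clusters rose and 14.5% fell. Lfng, the fringe enzyme that extends sugars on Notch and tunes its choice of ligand, fell by 1.00 ± 0.14 (limma adjusted p = 9.23e-04). Mib1, the ubiquitin ligase that drives ligand endocytosis, rose by 0.80 ± 0.13 (limma adjusted p = 0.00146), while Neurl1b, another ligase of ligands, fell by 0.52. Of 7 receptor cleavage genes 1 rose, Psen2 (0.27), and 1 fell, Psenen (-0.36), with a median of 0.04, both subunits of gamma-secretase. Of 8 genes of the nuclear complex and its corepressors 3 rose and 0 fell (median 0.15), and they were the acetyltransferase Kat2a (0.84), the Mastermind coactivator Maml3 (0.77) and Rbpj itself (0.29).

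In the same comparison, tumors against wild-type thymus, 16.2% of all clusters rose and 14.5% fell. Of 11 genes that degrade or inhibit the receptors, 4 rose and 2 fell (median 0.18). Nrarp (2.99 ± 0.36) and Dtx1, a Deltex ubiquitin ligase (2.82 ± 0.15), led the rises, and both are also Notch targets. Fbxw7, which marks the cut receptor for degradation, fell by 0.41. Of 14 direct targets 7 rose and 2 fell (median 0.59), the largest rise after those of Nrarp and Dtx1 being that of Heyl (2.35 ± 0.16), a transcriptional repressor of the Hes and Hey family. The 2 that fell were its relatives Hey1 (-1.21) and Hey2 (-0.63), named here after their values were seen. Hey2 had a mean log2 of 5.84 in tumors and 6.47 in wild-type thymus. Both are below the olfactory mark, 6.85 in log2, so its fall is of measured signal. In wild-type thymus Heyl (6.81) and Nrarp (6.88) lay near that mark, as did Hey1 in tumors (6.91). Of 11 further ligands of Notch receptors 0 rose and 3 fell (median 0.06), the matrix proteins Mfap5 (-1.53), Postn (-1.33) and Mfap2 (-0.44).

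**Figure D3:**
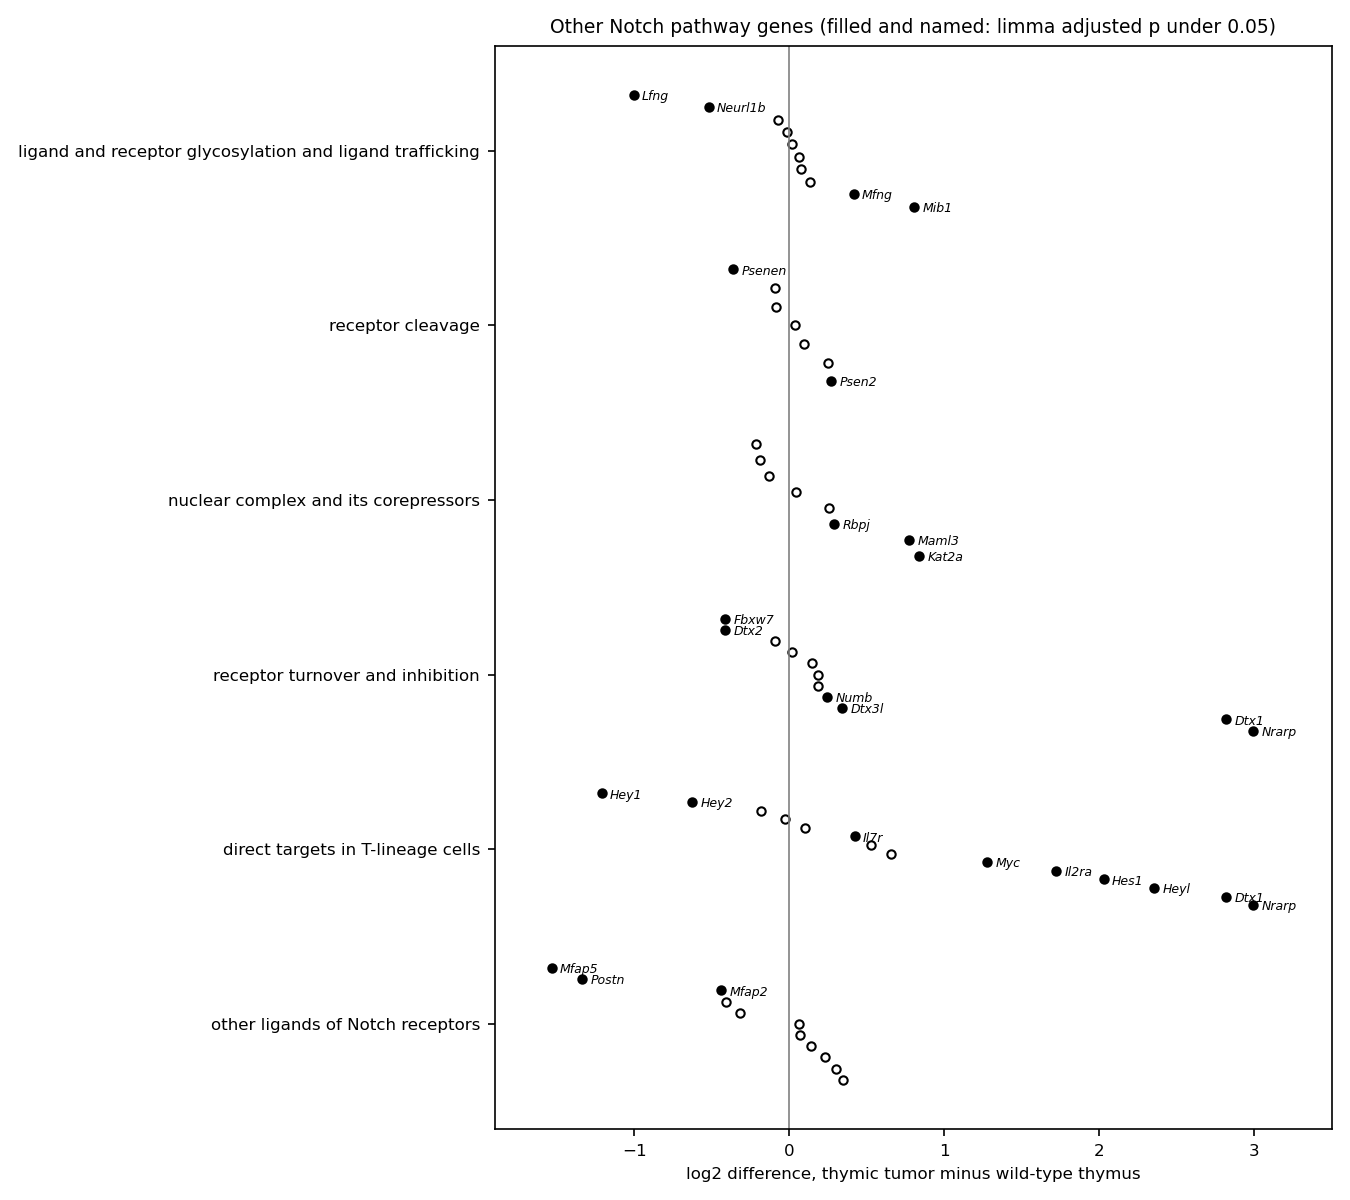
Log2 difference between tumors and wild-type thymus for the other Notch pathway genes, by list. Each point is a gene, and filled points with names passed at a limma adjusted p under 0.05. Nrarp (2.99) and Dtx1 (2.82), which stand in 2 lists, lie farthest to the right, and Hey1 (-1.21), Postn (-1.33) and Mfap5 (-1.53) farthest to the left.

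Against pre-leukemic thymus 7 direct targets rose in tumors and 2 fell, with 7.74% of all clusters higher and 8.27% lower. Dtx1 (2.53), Nrarp (2.69) and Heyl (2.05) again led. In the other lists 1 of 10 rose (Mib1, 0.77) and 2 fell (Lfng, -0.95, and Neurl1b, -0.55), 3 of 8 rose (Kat2a, 0.70, Maml3, 0.56, and Rbpj, 0.35), 2 of 11 rose (Nrarp and Dtx1) and 1 fell (Dtx2, -0.41), and 1 of 11 further ligands fell (Postn, -1.12). None of 7 cleavage genes passed, Psenen (-0.26) and Aph1c (-0.18) having the smallest p. No gene of these lists passed between pre-leukemic and wild-type thymus, where the 14 direct targets had a median of 0.23, and Il7r (-0.56), the interleukin 7 receptor, and Myc (0.27) had the smallest p. The smallest p of the other lists belonged to Maml3 (0.21) and Kat2a (0.14), Itch (-0.21) and Nrarp (0.31), Poglut1 (-0.15) and Mfng (0.10), Aph1a (0.12) and Psen2 (0.12), and Postn (-0.22) and Dll3 (0.16).

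The tumors carried thymocyte markers at high levels, as did both thymus groups. The summed intensity of 12 thymocyte markers was 34323 to 39114 in tumors, 45338 to 51178 in pre-leukemic thymus and 48890.5 to 51647 in wild-type thymus, and 8 of the 12 fell in tumors against wild type, where 14.5% of all clusters fell. The largest falls were those of Rag2 (-2.12), a recombinase subunit, and of the coreceptor chains Cd4 (-1.58), Cd8a (-1.47) and Cd8b1 (-1.02). Markers of the T lineage more widely were mixed. Cd3g (-0.32), Cd247 (-0.46) and Lat (-0.22) passed as lower, as did Ptprc (-0.47). Cd3d (-0.03), Cd3e (0.09) and Thy1 (-0.08) did not pass, and neither did Ptcra (0.66). The part of thymocyte content in the Notch1 and Notch3 differences was not tested.

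**Figure D4:**
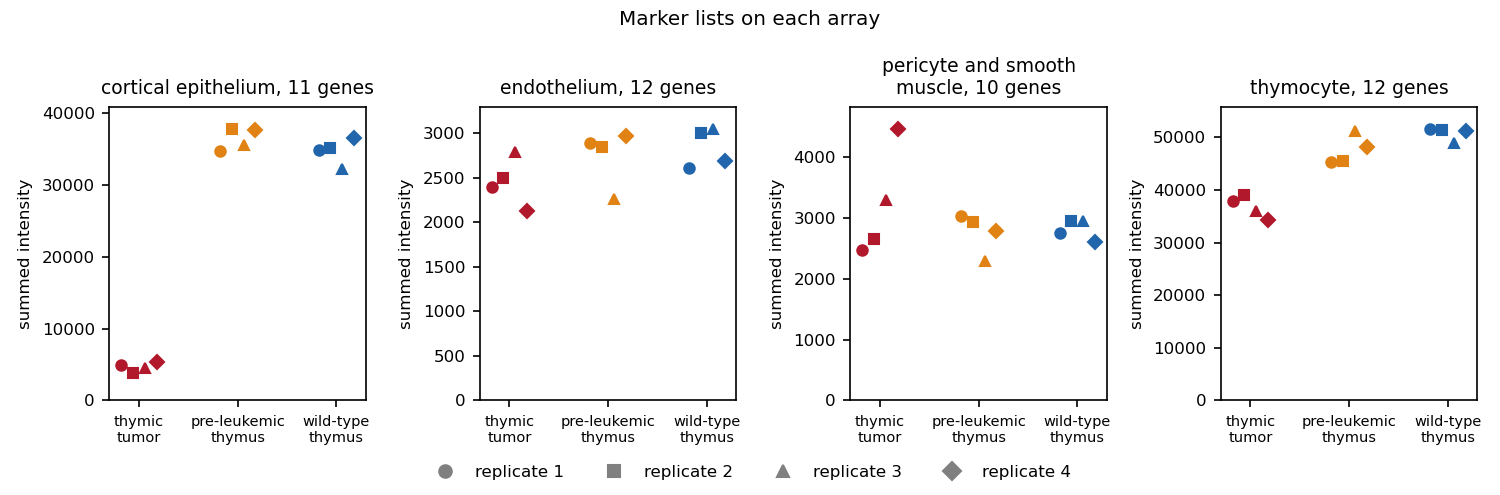
Summed linear intensity of the marker lists of 4 cell types on each array, with vertical axes from 0. Point shape gives the replicate number. Cortical epithelium lies at 3808 to 5339 in tumors, 34812 to 37854 in pre-leukemic and 32197 to 36525 in wild-type thymus. Endothelial sums overlap between the groups. Tumor replicate 4 has the highest mural sum (4467), of which Pdgfrb alone is 2216. The mean log2 of the mural list in that pool is 7.78, against 7.75 to 7.91 in wild-type thymus.

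The genes most like each changed member over the 12 arrays were sought among 2651 genes with a mean log2 of at least 6 and an SD of at least 0.3. For Notch1 they were Psrc1, Zmat3 and Prtg (Pearson r of 0.966, 0.964 and 0.960). For Notch3 they were Maml3, Prtg and Hes1 (0.980, 0.970 and 0.966). For Dll4 they were Osbpl6, Spock2 and Lamb3 (0.991, 0.986 and 0.980), and for Jag1 Dram1, Ifi27 and Lpar1 (0.968, 0.958 and 0.956). These values describe 12 arrays that share 3 groups, and the steps between groups make up much of each. With the group means removed, the 12 values of r ran between 0.740 (Lamb3 with Dll4) and 0.937 (Lpar1 with Jag1).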

How the data were processed

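RNA from pooled whole thymus and thymic tumors was read on exon arrays, 4 pools per group. The authors deposited normalized intensities on a linear scale, 1 per transcript cluster, with software and normalization not given in the sources used here. Array medians lay between 186 and 209.8. Each intensity was log2-transformed with no pseudocount. Other deposited matrices hold 24 columns of values under pool names that match no sample label. They were not used, and the exon probesets of Notch1 were not analysed here.

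Symbols came from the platform annotation: 15618 clusters carry 1 symbol, 1370 several and 841 none. Each comparison was fitted on its 8 arrays with limma 3.58.1 in R 4.3.3 (lmFit, eBayes, two-sided) over all 17829 clusters with no filter. Calls were made at 0.05 after Benjamini-Hochberg adjustment, and every adjusted p is from limma over all clusters of its fit. Nothing says whether pools came from separate litters, so p-values measure the spread between pools. On simulated data with 17829 clusters the test found 84% of the genes given a log2 change of 1 for tumor against wild-type thymus. It found 81% for tumor against pre-leukemic and 85% for pre-leukemic against wild-type thymus. Of those given 0.5 it found 40%, 31% and 49%. Only 100 genes were given each change, and both groups had the same SD per cluster. The tumor comparisons called a far larger share of clusters, so these rates need not hold there. The number of arrays and the spread within groups set the precision. The median SE was 0.10 (tumor against wild type), 0.13 (tumor against pre-leukemic) and 0.10 (pre-leukemic against wild type).

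The members, the gene lists and the rules were chosen with earlier results of these data known. Named were all members, and for Notch1 and each called member the 3 genes of highest Pearson r. From each pathway list the 3 called genes with the largest change were named or, where a list had no call, its 2 genes of smallest p. Cell type markers, Hey1, Hey2 and some targets read on each array were named outside this rule. Alternatives covered normalization, centring, a pseudocount, a low-value filter, the arrays fitted, array weights, the prior, a replicate block, stricter thresholds and arrays left out.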

Additional observations from a re-analysis of the deposited data

How the results depend on the processing

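Over the 7 members and 3 comparisons, 420 alternative values were computed, of which 381 kept their direction and side of the threshold, 16 lost a call, 13 gained one and 10 changed sign. The sign changes were all of uncalled values near 0 in pre-leukemic minus wild-type thymus. Dll1 was -0.032 with quantile normalization, -0.020 with arrays centred on their median, -0.18 without the 4 arrays of narrowest range and -0.063 to 0.11 with 1 array left out. Notch2 was -0.011 with centring. Jag1 was 0.035 with array weights and -0.067 to 0.025 with 1 array left out. Members called between tumors and wild-type thymus numbered 4, but 2 (Notch1 and Dll4) with treat at 1.5-fold, 2 with the posterior over 95%, 5 with quantile normalization, 6 without the 4 arrays of narrowest range, and 4 to 5 with 1 array left out. Against pre-leukemic thymus they numbered 3, but 5 with all 12 arrays in 1 fit, 5 with array weights, and 1 (Dll4) with treat at 1.5-fold, with the posterior and without the 4 arrays of narrowest range. There they numbered 1 to 3 with 1 array left out, the lowest count being without tumor replicate 4. Those alternatives that left arrays out also had fewer samples, and otherwise the cause was not tested. Over all clusters, 5474 of 17829 were called between tumors and wild-type thymus in the main fit. Quantile normalization called 6683 there, the fit without the 4 arrays of narrowest range 6618, and fits without 1 array 4177 to 5545. Treat called 617 there and the posterior 886. Between tumors and pre-leukemic thymus they called 260 and 364, against 2855, the fit without the 4 arrays of narrowest range 853, and fits without 1 array 1728 to 2606. The fit of all 12 arrays called 4290 there and array weights 4039. Pre-leukemic against wild-type thymus gave 0 members under every setting run. Replicate numbers carry no stated pairing, and same-numbered pools deviated from their group means with correlations of -0.40 to 0.15, -0.41 to 0.42 and -0.55 to -0.04 in the 3 comparisons. With the replicate number as a block the members called stayed at 4, 3 and 0, with 4210, 2063 and 0 clusters called in all. Averaging all clusters of a symbol changed nothing, since each member has 1. The alternatives for the exon probesets of Notch1 were not run. Weak signal limits Dll1 in all groups and Dll4 and Jag1 in tumors. Jag1 was also near the mark of 115.3 in thymus, at 112 to 135 in pre-leukemic and 126 to 131 in wild-type pools.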
